A study of Mus musculus with 18 samples.

Results

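The change across birth was described in the 6 arrays of lungs in which *Scap* had been deleted from the respiratory epithelium (ScapΔ/Δ), 3 at embryonic day 18.5 (E18.5; arrays KO10, KO11 and KO12) and 3 at PN1, the day of birth (arrays KO16, KO17 and KO18). These are 6 of 18 whole-lung arrays in the series, and they were chosen by genotype and age as labelled. ScapΔ/Δ mice carried *Scap* alleles flanked by loxP sites together with the SP-C-rtTA and (tetO)7CMV-Cre transgenes, and their dams ate doxycycline chow for a limited period of early gestation, so that Cre was made in cells with an active SP-C promoter. The 6 controls (C7, C8 and C9 at E18.5; C13, C14 and C15 at PN1) were floxed littermates of the same doxycycline-treated dams that lacked rtTA or Cre, so the floxed allele and the drug were common to both genotypes. The mice had a mixed genetic background, deletion of *Scap* was incomplete according to the study, and cells other than epithelium kept the gene. E18.5 lungs came from Cesarean delivery, whereas PN1 lungs came from pups taken after birth.

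SCAP is the escort protein that carries the SREBP transcription factors from the endoplasmic reticulum to the Golgi, where they are cut and released to turn on genes of cholesterol and fatty acid synthesis. INSIG1 and INSIG2 hold SCAP back when sterol is plentiful. In type II epithelial cells this system supplies lipid for surfactant, the film that lowers surface tension once the lung fills with air, and birth adds a rise in oxygen tension, stretch, a surge of hormones and a change of fuel.

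*Scap* itself was read at 9.47, 9.25 and 9.22 in KO10, KO11 and KO12 and at 9.54, 9.53 and 9.65 in KO16, KO17 and KO18 (log2 expression values as deposited). The 3 control arrays of E18.5 lay at 9.75, 9.71 and 9.71 and those of PN1 at 9.91, 9.76 and 9.92, so at each age every ScapΔ/Δ array lay below every control array. *Sftpc*, the surfactant protein made only by lung epithelium, lay between 13.37 and 13.50 in all 6 ScapΔ/Δ arrays, and *Nkx2-1*, the lung epithelial transcription factor, between 10.70 and 11.12.

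The 3 PN1 arrays were not alike. Over the 22815 probe sets that passed the filter, KO16 differed from the mean of the ScapΔ/Δ E18.5 arrays with an SD of 0.300, KO17 with an SD of 0.758 and KO18 with an SD of 0.773. KO16 had 142 probe sets more than 1 log2 unit above the E18.5 mean and 128 more than 1 unit below it, against 1631 and 1848 in KO17 and 1678 and 1900 in KO18. Between KO17 and KO18 these differences had r = 0.971, and between each of them and KO16 r = 0.386 and 0.352 (across probe sets, which are not independent, and with the same 3 E18.5 arrays subtracted in each). Against the change in control littermates, which share no array with them, KO16 gave r = 0.822, KO17 r = 0.295 and KO18 r = 0.265. The interquartile range of all deposited values was 2.98 in KO17 and in KO18 and lay between 3.42 and 3.61 in the other 16 arrays. Over the third of the probe sets with the highest E18.5 mean the median difference from the E18.5 mean was -0.01 in KO16 but -0.36 and -0.38 in KO17 and KO18, and over the third with the lowest it was 0.06 but 0.27 and 0.29. The median of 1194 olfactory and vomeronasal receptor genes, which lung hardly expresses, was 5.01 and 5.07 in KO17 and KO18 and between 4.77 and 4.86 in the others. *Xist*, the female transcript, was at 10.61 or above in KO10, KO11 and KO16 and at 6.53 or below in KO12, KO17 and KO18. The part of array quality or sex in the results was not tested. Gene lists and most named genes are therefore given array by array. Other genes are given by their mean difference only, which does not show how far the 3 PN1 arrays lay apart.

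**Figure D1:**
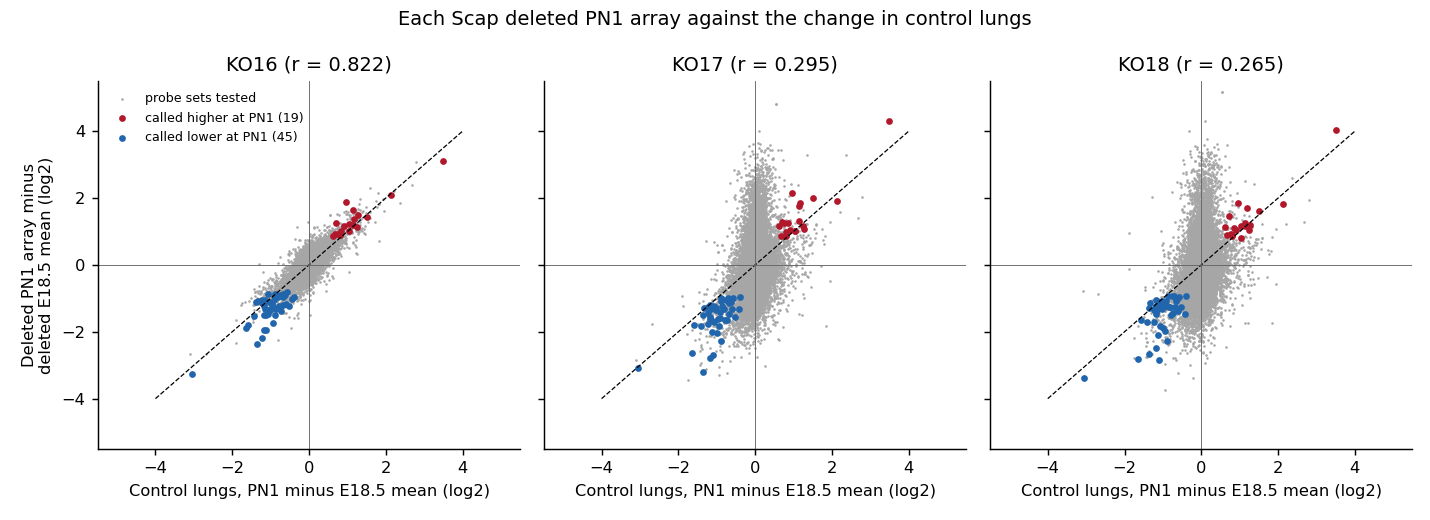
Each panel plots 1 ScapΔ/Δ PN1 array minus the mean of the 3 ScapΔ/Δ E18.5 arrays (vertical axis, log2) against the mean PN1 minus E18.5 difference in control lungs (horizontal axis, log2) for 22815 probe sets (grey), with the 19 probe sets that rose in red, the 45 that fell in blue and the dashed line marking equal change. KO16 follows the line (r = 0.822), whereas KO17 (r = 0.295) and KO18 (r = 0.265) spread along the vertical axis. In all 3 the called probe sets have the sign of the control change. Some that fell lie well below the line, such as *Ppp1r3c* at -1.95, -2.68 and -2.85 in KO16, KO17 and KO18 and -1.11 in controls.

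From E18.5 to PN1 64 of 22815 probe sets changed in ScapΔ/Δ lungs, or 0.281%, at an adjusted p under 0.05 (limma, 6 arrays, two-sided, Benjamini-Hochberg adjustment). 19 rose (0.0833%) and 45 fell (0.197%), of which 16 and 43 have a single gene symbol, and their adjusted p lay between 0.0385 and 0.0498. None (0%) met the stricter limit that the study's methods give for *Insig1* and *Insig2* deletion (adjusted p up to 0.01 and at least 1.5-fold). An unadjusted p under 0.05 was found for 6996, with 13.7% of the tested probe sets higher and 16.9% lower. The count hung on single arrays: without any of KO10, KO11, KO12, KO17 or KO18 it was 0, without KO16 it was 14450, and without KO17 and KO18 together it was 70, of which 19 were among the 64.

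Control lungs ran the same way for these probe sets. All 64 probe sets had the same sign in control littermates, and the control groups did not overlap for 19 of 19 that rose and 44 of 45 that fell, against 17.6% and 16.5% of all probe sets tested. The median change of the 19 was 1.14 in ScapΔ/Δ lungs and 1.03 in controls, and that of the 45 was -1.30 and -1.01 (log2). The probe sets were called on the ScapΔ/Δ change alone, and that choice itself tends to widen the gap to controls. In KO16, KO17 and KO18 the medians were 1.19, 1.26 and 1.16 for the 19 and -1.20, -1.46 and -1.29 for the 45, a closeness that the test itself selects, since a call needs a small spread within each age.

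Genes of contractile cells were among those that rose. *Cnn1*, which encodes the smooth muscle actin-binding protein calponin, was at 8.43, 8.81 and 8.60 in the E18.5 arrays and at 10.72, 10.52 and 10.44 at PN1. The PN1 arrays lay well above those of E18.5, a difference of 1.94 ± 0.14 (log2, SE, n = 3 per age), or 3.85-fold. *Htr2a*, a serotonin receptor of smooth muscle and other cells, went from 7.76, 7.73 and 7.80 to 9.03, 9.04 and 9.22, and its rise of 1.33 compared with 0.71 in controls. *Sync*, which encodes the muscle intermediate filament protein syncoilin and was picked after its values were seen, rose by 0.94.

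Of the 16 smooth muscle and pericyte markers, all tested, 1 rose and none fell, where over the 14987 genes tested 0.107% rose and 0.287% fell. At an unadjusted p under 0.05 9 of them lay higher and 1 lower, with a background of 9.21% higher and 19.6% lower. *Actg2*, enteric smooth muscle actin, was at 9.89, 10.19 and 10.08 before birth and at 11.71, 11.27 and 11.20 after it. *Des*, which encodes desmin, was at 10.01, 10.15 and 10.21 and then at 11.34, 11.12 and 10.98. Neither group of arrays overlapped, and both genes missed the threshold (adjusted p = 0.0538 and 0.0541, limma). *Myh11*, the smooth muscle myosin heavy chain, split the PN1 lungs, with 9.31 in KO16 and 10.19 in both KO17 and KO18 over 9.09, 8.70 and 8.63 at E18.5. The pericyte potassium channel gene *Kcnj8* ran the other way, from 11.12, 11.13 and 11.09 to 10.41, 9.17 and 9.4 (adjusted p = 0.0941, limma). The median of the list differed by 0.17, 0.49 and 0.65 in KO16, KO17 and KO18 and 0.08 in controls, against 0.01, -0.14 and -0.13 and 0.01 for all genes. In RNA from whole lung, a change in the number of cells of a type and a change in RNA per cell cannot be told apart.

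Genes of secreted matrix-associated proteins, which stand in the immediate early, TGF-beta and matrix lists, also rose. *Ccn1* encodes a secreted matrix-associated protein and is a well-known target of the YAP and TEAD factors, and its 250 bases upstream of the annotated start are shown because they hold the TEAD core. The stretch lies at chr3:145649986-145650235, minus strand, RefSeq on GRCm38.p6, with the core GGAATG in capitals (found on the reverse strand, as CATTCC):
Ccn1: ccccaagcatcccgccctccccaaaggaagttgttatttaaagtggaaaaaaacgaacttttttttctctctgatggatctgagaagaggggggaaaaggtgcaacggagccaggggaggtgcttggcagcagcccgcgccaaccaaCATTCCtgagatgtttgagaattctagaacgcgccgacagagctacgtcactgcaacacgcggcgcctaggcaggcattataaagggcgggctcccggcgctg
That core occurs on either strand in 12.6% of all 32851 upstream windows of this length, and a match is a description of the letters only.

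*Ccn1* was at 10.28, 10.21 and 10.20 at E18.5 and at 11.87, 11.56 and 11.39 at PN1, a rise of 1.38 ± 0.15 (log2, SE, n = 3 per age) beside 1.15 in controls. *Ccn2*, the connective tissue growth factor gene of the same family, went from 11.64, 11.55 and 11.48 to 12.49, 12.43 and 12.44. The groups were far apart in both. *Tnc*, which encodes the matrix glycoprotein tenascin-C, rose by 1.65, with 10.11, 9.79 and 9.53 followed by 11.18, 11.66 and 11.52. *Tgfbi*, a secreted TGF-beta-induced protein, rose by 1.09. *Thbs1*, thrombospondin, was at 10.92, 10.48 and 10.24 and then at 11.95, 12.14 and 12.04, just short of the threshold (adjusted p = 0.0503, limma).

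Of 15 genes of the TGF-beta list 14 were tested, of which 2 rose, none fell and 7 lay higher at an unadjusted p under 0.05. Of 30 matrix genes 27 were tested, of which 1 rose, none fell, and 11 lay higher and 2 lower at that level. Of 25 immediate early genes, which cells switch on within minutes of a stimulus, 24 were tested. Of these 2 rose, none fell, and 10 lay higher and 1 lower. The shares of all genes were 9.21% higher and 19.6% lower at that level, and 0.107% that rose and 0.287% that fell. *Ccn2* is counted in both the TGF-beta and the immediate early list. The immediate early genes differed by array. *Egr1*, a zinc finger factor, was at 9.20 in KO16 and at 8.13 and 8.15 in KO17 and KO18, over 7.84, 7.74 and 7.49 at E18.5. *Nr4a1*, an orphan nuclear receptor, was at 10.15 in KO16 and at 9.09 and 9.20 in KO17 and KO18, over 8.50, 8.66 and 8.42. In KO16 the list had a median difference of 0.47, against 0.14 and 0.13 in KO17 and KO18 and 0.40 in controls.

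Other genes that rose included *Heyl*, a target of Notch signals in vessel wall cells, by 1.13, *Sema3c*, a secreted guidance protein, by 1.11, and *Agmo*, which encodes the enzyme that cleaves ether lipids, by 1.25. *Upk1b*, a uroplakin found in mesothelium, went from 9.55, 9.62 and 9.61 to 10.78, 11.36 and 10.84. *Rnu3a*, 1 of several near-identical copies of the U3 small nucleolar RNA, went from 6.95, 7.25 and 7.64 to 9.16, 9.42 and 9.12, and its assignment to this copy is uncertain. The largest rise of all, 3.81, belonged to probe set 10598041, which has no gene name here.

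**Figure D2:**
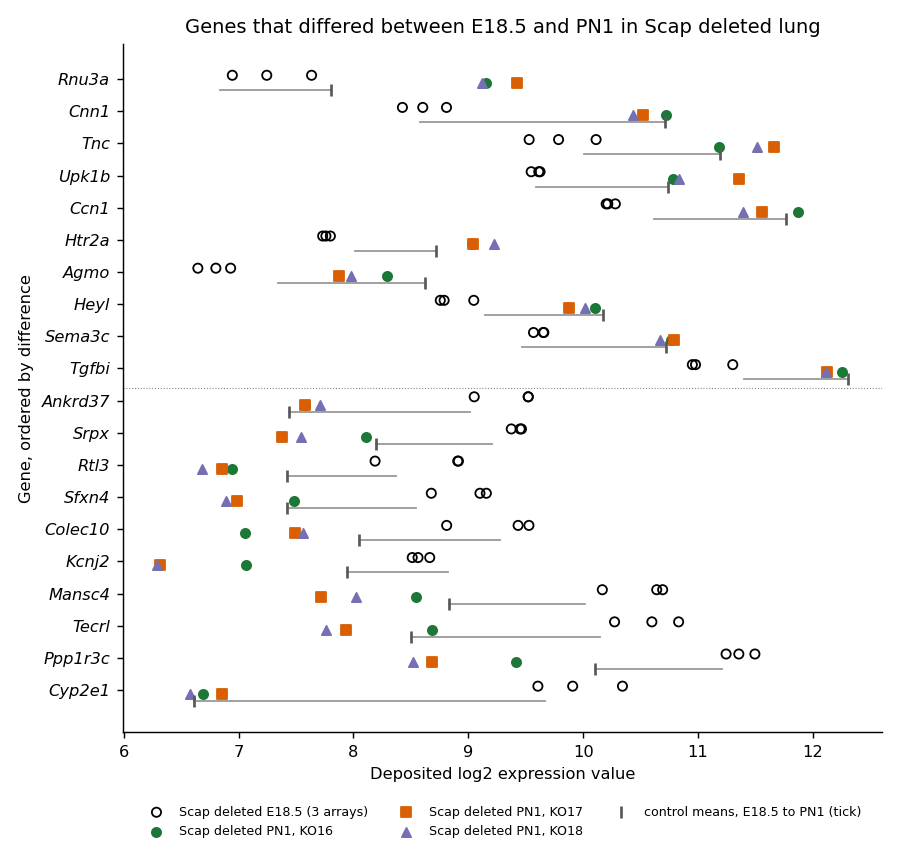
Deposited log2 expression values (horizontal axis) of the 10 named genes with the largest rise and the 10 with the largest fall, with open circles for the 3 ScapΔ/Δ E18.5 arrays, coloured symbols for KO16, KO17 and KO18, and a grey line from the E18.5 to the PN1 mean of controls that ends in a tick. In every gene the E18.5 and PN1 arrays stand apart, and the control line runs the same way, from *Cyp2e1* at -3.25 in ScapΔ/Δ lungs to *Rnu3a* at 1.96.

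The deepest fall among named genes was that of *Cyp2e1*, the cytochrome P450 that oxidizes ethanol and other small molecules. It was at 9.61, 9.91 and 10.34 in the E18.5 arrays and at 6.69, 6.86 and 6.58 at PN1, a fall of 3.25 on the log2 scale (SE 0.20, n = 3 per age) beside -3.06 in controls. *Ppp1r3c*, which targets a phosphatase to glycogen, was at 11.36, 11.49 and 11.24 and then at 9.42, 8.68 and 8.51. Its difference was -2.49, beside -1.11 in controls. *Kcnj2*, an inward rectifier potassium channel, went from 8.51, 8.56 and 8.66 to 7.07, 6.31 and 6.29, and *Colec10*, a collectin of innate defence, from 9.53, 8.81 and 9.43 to 7.06, 7.49 and 7.57. *Tecrl*, a relative of the enoyl-CoA reductases, fell by 2.44, *Sfxn4*, a mitochondrial carrier protein, by 1.86, and *Mansc4*, *Srpx* and *Rtl3* by 2.4, 1.75 and 1.84. In KO16, KO17 and KO18 *Tecrl* differed from the E18.5 mean by -1.88, -2.64 and -2.81 and *Sfxn4* by -1.50, -1.99 and -2.09. *Mansc4* differed by -1.96, -2.78 and -2.48, *Srpx* by -1.32, -2.05 and -1.88, and *Rtl3* by -1.73, -1.81 and -1.99.

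Several enzymes of small-molecule metabolism were also among those that fell, and apart from *Aox3* they were picked after their values were seen. *Cth* and *Mpst* encode enzymes that release hydrogen sulfide from cysteine and its products, and they fell by 1.32 and 1.17. *Aldh1l1*, of folate metabolism, fell by 1.24, *Abat*, which breaks down GABA, by 1.22, *Acss3*, an acyl-CoA synthetase, by 1.19, and *Aox3*, an aldehyde oxidase, by 1.46. Their control differences were -1.03, -0.80, -1.14, -1.23, -0.92 and -0.79 in that order.

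Most genes of the hypoxia response and of glycolysis, 25 of 27 tested, had a lower mean after birth, as did 8637 of all 14987 genes tested. A stretch of *Ankrd37*, an ankyrin repeat gene switched on by hypoxia-inducible factor, is shown because it holds the core ACGTG, which that factor binds, 2 times. It precedes the transcript start used for the window but lies inside the span annotated for the gene, chr8:45996908-46000414. It is therefore not upstream of the whole gene. The core is in capitals (chr8:45999851-46000100, minus strand, RefSeq on GRCm38.p6):
Ankrd37: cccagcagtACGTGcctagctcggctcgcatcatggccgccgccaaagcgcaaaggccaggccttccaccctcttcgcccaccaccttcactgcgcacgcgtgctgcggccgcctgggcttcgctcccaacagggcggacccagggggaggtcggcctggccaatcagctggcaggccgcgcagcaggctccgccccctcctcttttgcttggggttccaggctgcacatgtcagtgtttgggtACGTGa
The core was present on either strand in 14 of 24 members of the hypoxia and glycolysis list with such a window (58.3%), and in 16.6% of all windows. Among members with a window it was present in 33.3% of the immediate early list and 9.09% of the smooth muscle and pericyte list. The hypoxia list was put together from genes of that response, so its share describes the choice of members. A match is a description of the letters only.

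*Ankrd37* was at 9.05, 9.52 and 9.52 at E18.5 and at 7.58, 7.58 and 7.71 at PN1, with no array of either age near the other, and fell by 1.75 on the log2 scale, beside -1.58 in controls. Of 29 genes of this list 27 were tested, 1 fell and none rose (0.287% and 0.107% of all genes). At an unadjusted p under 0.05 19 lay lower and 2 higher (19.6% and 9.21% of all genes). *Vegfa* was 1 of the 2 that lay higher, at 11.37, 11.29 and 11.21 and then at 11.52, 11.96 and 11.98. *Egln3*, the oxygen-sensing prolyl hydroxylase induced by hypoxia, was at 11.26, 11.27 and 10.84 and then at 9.66, 8.61 and 8.55 (adjusted p = 0.0603, limma). *Ndrg1*, another hypoxia-induced gene, was at 11.49, 11.13 and 11.14 and then at 10.11, 9.58 and 9.63 (adjusted p = 0.0538, limma). Glycolytic *Aldoc*, an aldolase, split the PN1 lungs, with 8.98 in KO16, 7.33 in KO17 and 7.76 in KO18 after 9.58, 9.84 and 9.71. *Adm*, the vasodilator adrenomedullin, was at 9.48 in KO16 but at 7.59 in KO17 and 7.58 in KO18, over 9.08, 9.45 and 9.19 at E18.5. The list's median difference was -0.29, -0.95 and -0.87 in KO16, KO17 and KO18 and -0.33 in controls.

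The genes that fell included *Ncapg*, a condensin subunit, and *Kif15*, a spindle kinesin. Their upstream stretches are shown because both hold TTTGAA, the core of the element that represses cell cycle genes in resting cells (capitals; TTCAAA is the same on the other strand). The stretches are chr5:45669675-45669924, plus strand, and chr9:122950831-122951080, plus strand, RefSeq on GRCm38.p6:
Ncapg: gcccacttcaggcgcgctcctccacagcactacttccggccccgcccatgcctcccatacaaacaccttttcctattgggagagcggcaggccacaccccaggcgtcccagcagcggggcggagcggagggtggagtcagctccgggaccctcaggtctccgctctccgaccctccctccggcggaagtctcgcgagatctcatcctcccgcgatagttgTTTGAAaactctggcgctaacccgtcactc
Kif15: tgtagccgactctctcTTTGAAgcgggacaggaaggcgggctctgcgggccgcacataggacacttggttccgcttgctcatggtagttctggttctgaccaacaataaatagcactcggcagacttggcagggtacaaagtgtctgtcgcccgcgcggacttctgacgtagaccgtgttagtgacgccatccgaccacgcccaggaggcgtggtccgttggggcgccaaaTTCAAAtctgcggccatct
These letters were present in 8 of 29 members of the DNA replication and mitosis list with a window (27.6%) and in 16% of all windows. The hypoxia core ACGTG was also present in 8 of these 29 (27.6%), and in 16.6% of all windows, so the share was not particular to TTTGAA.

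*Ncapg* and *Kif15*, with *Spc25* of the kinetochore and *Esco2* of sister chromatid cohesion, fell by 1.29, 1.08, 1.38 and 1.29 on the log2 scale. All 4 were picked after their values were seen and are not members of the list. *Ncapg* was at 8.20, 8.27 and 7.99 at E18.5 and at 7.05, 6.67 and 6.86 at PN1. Of the 40 genes of the list 38 were tested and none passed. At an unadjusted p under 0.05 25 lay lower and 1 higher (19.6% and 9.21% of all genes). *Kif11*, a spindle motor, was at 9.37, 9.31 and 9.15 and then at 8.28, 7.5 and 7.73 (adjusted p = 0.0603, limma). *Bub1*, a checkpoint kinase, was at 8.94, 8.96 and 8.82 and then at 7.83, 6.65 and 6.86 (adjusted p = 0.0638, limma). As a whole the list had a median difference of -0.50, -1.02 and -0.89 in KO16, KO17 and KO18 and -0.78 in controls, so all 3 arrays and the controls lay on the same side.

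The SREBP pathway, the one that the deletion was aimed at, gave 1 call. *Scd2*, a stearoyl-CoA desaturase that makes monounsaturated fatty acids, was at 12.53, 12.31 and 12.27 at E18.5 and at 11.215, 11.058 and 11.005 at PN1. It fell by 1.28 on the log2 scale (SE 0.13, n = 3 per age), or 2.42-fold, whereas in controls it went from 12.91 in each E18.5 array to 12.47, 12.17 and 12.26, a difference of -0.61. The difference between these changes was -0.67 (unadjusted p = 0.000861, adjusted p = 0.265, limma interaction). *Scd1*, its close relative, was at 9.45, 9.30 and 10.81 and then at 8.45, 8.0 and 7.55. KO12 stood above the other E18.5 arrays, the ages did not overlap, and the difference of -1.85 did not pass (adjusted p = 0.107, limma). Control *Scd1* was between 11.23 and 12.56, higher in each array than in any ScapΔ/Δ array.

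Of 20 genes of fatty acid synthesis 18 were tested, 1 fell, none rose, and 3 lay lower and none higher at an unadjusted p under 0.05, a share no higher than the 19.6% of all genes that lay lower. *Acss2*, which makes acetyl-CoA from acetate, was the third of these, at 10.13, 9.88 and 9.70 and then at 9.52 in KO16, 8.40 in KO17 and 8.56 in KO18. *Slc25a1*, the mitochondrial citrate carrier, lay on both sides of its E18.5 values of 10.18, 10.18 and 10.22, at 10.43 in KO16 and at 9.54 and 9.69 in KO17 and KO18.

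The genes of cholesterol synthesis lay differently in KO16 than in KO17 and KO18. Of 20 genes 17 were tested and none was called. At an unadjusted p under 0.05 4 lay higher and none lower (9.21% and 19.6% of all genes). In KO16 16 of the 17 lay above the ScapΔ/Δ E18.5 mean (52.4% of all genes), as did 16 of 17 in the control comparison (52.8%), whereas 5 did in KO17 (40.5%) and 6 in KO18 (41.9%). The list's median difference was 0.54 in KO16, -0.10 in KO17, -0.10 in KO18 and 0.54 in controls. Its median over the 3 arrays, 0.07, turned to -0.10 with median centring of the arrays. Such a split was not particular to sterol genes: of 31 genes of the proteasome, the complex that degrades marked proteins, 29 lay above the E18.5 mean in KO16 and 1 in each of KO17 and KO18 (median differences 0.20, -0.47 and -0.46).

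*Idi1*, which isomerizes the isoprene unit, was at 9.08, 9.26 and 9.28 at E18.5, at 10.20 in KO16, and at 8.89 and 8.65 in KO17 and KO18, while controls differed by 1.12. *Msmo1*, a sterol methyl oxidase, was at 9.48, 9.84 and 9.85, then at 10.73 in KO16 and 9.62 and 9.41 in KO17 and KO18. *Nsdhl*, a sterol dehydrogenase, was at 10.19, 10.05 and 9.96, then at 10.58 in KO16 and 9.04 and 9.16 in KO17 and KO18. In each of these genes KO16 lay above all E18.5 arrays and the other PN1 arrays did not. *Cyp51*, the lanosterol demethylase, and *Fdps*, farnesyl diphosphate synthase, were higher in all 3 PN1 arrays than in any E18.5 array. *Cyp51* was at 7.83, 7.87 and 7.71 and then at 9.01, 8.52 and 8.22, with a difference of 0.78 (adjusted p = 0.123, limma) beside 1.33 in controls.

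**Figure D3:**
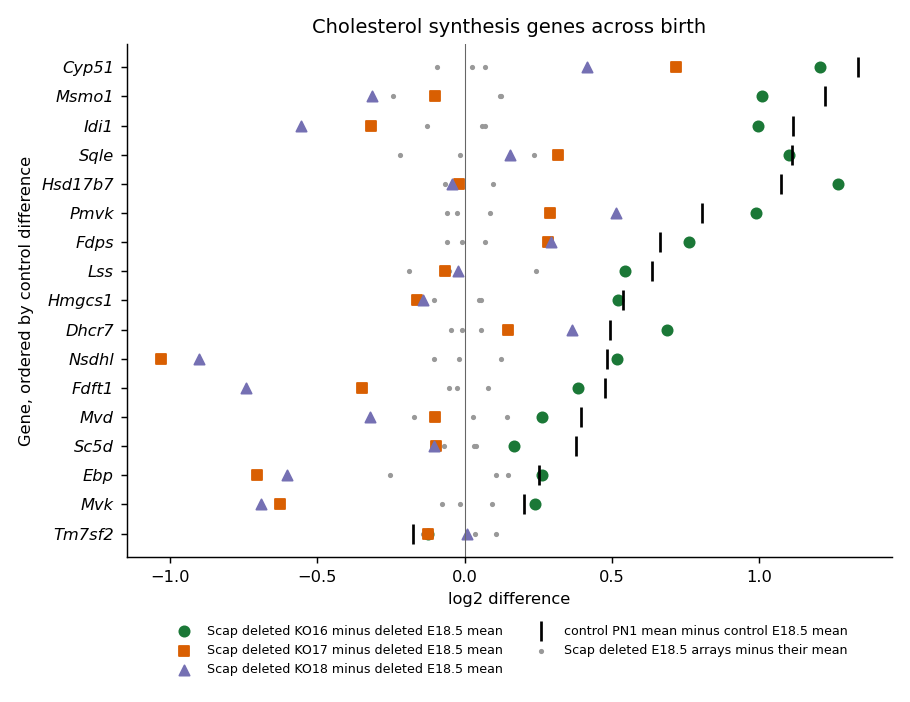
log2 difference from the mean of the ScapΔ/Δ E18.5 arrays (horizontal axis) for the 17 cholesterol synthesis genes tested, with coloured symbols for KO16, KO17 and KO18, grey points for the E18.5 arrays themselves and a black bar for the PN1 minus E18.5 difference of control means. KO16 lies beside the control bar in most genes (medians 0.54 and 0.54), and KO17 and KO18 lie to the left of it (medians -0.10 and -0.10).

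Of 11 genes for SCAP, the SREBPs, their partners and sterol uptake 8 were tested and none passed. *Srebf2*, which encodes the SREBP of cholesterol synthesis, was at 9.71, 9.43 and 9.42 and then at 9.93, 10.06 and 10.13 (difference 0.52, adjusted p = 0.113, limma; exact permutation p = 0.1, two-sided, the smallest that 3 against 3 arrays allow). *Srebf1* stayed within 8.90 and 9.18 in all 6 arrays (exact permutation p = 0.7, two-sided). *Insig1*, itself an SREBP target, was at 10.10, 10.18 and 10.27 and then at 10.89, 10.45 and 10.39, and *Insig2* at 10.38, 10.49 and 10.48 and then at 10.20, 9.53 and 9.62.

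The liver X receptor, which senses oxysterols, drives sterol export. Of 13 genes of that list 9 were tested and *Mylip*, whose product marks the LDL receptor for degradation, fell by 1.67 on the log2 scale, from 10.14, 10.03 and 9.99 to 8.58, 8.35 and 8.21, beside -1.07 in controls. At an unadjusted p under 0.05 6 lay lower and 1 higher (19.6% and 9.21% of all genes). *Nr1h3*, the receptor gene itself, was at 10.45, 10.78 and 10.94 and then at 9.94, 8.60 and 8.71 (adjusted p = 0.1, limma), a difference of -1.64 beside -0.53 in controls. *Abca1*, the cholesterol exporter, was at 9.86, 9.56 and 9.46 and then lowest in KO16, at 8.01, with 8.81 and 8.97 in KO17 and KO18 (adjusted p = 0.122, limma). Its difference was -1.03, beside -1.46 in controls. The list's median difference was -0.14, -0.70 and -0.65 in KO16, KO17 and KO18 and -0.13 in controls.

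Surfactant genes did not pass the test in either direction. All 22 genes of the surfactant and type II cell list were tested. At an unadjusted p under 0.05 8 lay lower and 1 higher (19.6% and 9.21% of all genes). *Sftpd*, the collectin of surfactant, was the gene that lay higher, at 11.02, 11.26 and 11.42 and then at 11.88, 11.70 and 11.67 (difference 0.52, adjusted p = 0.127, limma), beside 0.84 in controls. *Sftpb*, which spreads the lipid film, was at 12.80, 12.75 and 12.85 and then at 12.67, 12.35 and 12.38. *Sftpa1*, the other surfactant collectin, was at 11.68, 11.74 and 12.76 and then at 11.85, 10.89 and 10.47, where its control arrays all lay between 12.83 and 12.99. KO12 at E18.5 and KO16 at PN1 were the highest of their ages for *Sftpa1*.

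*Lamp3*, of the lamellar bodies in which surfactant is stored, was at 12.17, 12.28 and 12.29 and then at 11.92, 11.42 and 11.40 (adjusted p = 0.112, limma). *Fabp5*, a fatty acid-binding protein, was at 11.41, 11.69 and 11.85 and then at 11.26 in KO16 but 9.70 and 9.73 in KO17 and KO18. *Abca3*, the lipid transporter of the lamellar body, overlapped between ages, with 10.60, 10.39 and 10.18 and then 10.18, 10.23 and 10.28. The list's median difference was -0.03 in KO16, -0.42 in KO17, -0.38 in KO18 and -0.03 in controls, close to that of the third of all probe sets with the highest E18.5 mean (-0.01, -0.36 and -0.38 in KO16, KO17 and KO18), whose part in it was not tested.

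Interferon-induced genes lay lower at PN1, with 1 call among 19 tested of 25. *Oasl2*, an antiviral gene, was at 9.87, 9.55 and 9.85 and then at 8.56, 8.30 and 8.50, a fall of 1.30 on the log2 scale beside -0.68 in controls. At an unadjusted p under 0.05 12 lay lower and none higher (19.6% and 9.21% of all genes). The change differed from that of controls in 12 of 19 at an unadjusted p under 0.05, where the background over all genes was 16.7%. No adjusted p was below 0.265 (limma interaction). *Irf1*, an interferon regulatory factor, was at 9.90, 9.95 and 9.84 and then at 9.24, 8.76 and 8.73 (adjusted p = 0.063, limma). *Usp18*, a brake on interferon signals, was at 10.17, 10.18 and 10.69 and then at 9.79 in KO16 but 8.05 and 8.08 in KO17 and KO18. Over the list the median difference was -0.25, -0.79 and -0.67, and -0.11 in controls.

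Markers of blood-derived cells moved unevenly. Of 20 neutrophil genes 17 were tested and *Mmp9*, the gelatinase stored in their granules, rose by 1.04, from 7.33, 7.28 and 7.29 to 8.22, 8.57 and 8.24. At an unadjusted p under 0.05 10 lay higher and 1 lower (9.21% and 19.6% of all genes). The list's median difference was 0.57, 0.69 and 0.40 in KO16, KO17 and KO18 and 0.64 in controls. *Ngp*, a granule protein, was at 8.88, 8.58 and 8.72 and then at 10.93, 10.30 and 9.95 (adjusted p = 0.0617, limma). *S100a8*, which neutrophils hold in large amounts, was at 8.67, 9.63 and 9.74, at 10.44 in KO16, and at 8.99 and 8.77 in KO17 and KO18.

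Of 25 macrophage and monocyte genes 21 were tested and none passed. At an unadjusted p under 0.05 9 lay lower and 2 higher (19.6% and 9.21% of all genes). *Ccr2*, the monocyte chemokine receptor, was at 10.01, 10.29 and 10.09 and then at 9.29, 7.85 and 7.59 (adjusted p = 0.102, limma). *Cd68*, a lysosomal marker of macrophages, was at 9.78, 9.96 and 9.92, at 10.15 in KO16, and at 8.70 and 8.95 in KO17 and KO18. KO16 lay with or above the E18.5 arrays for *Cd68*, and the others well below. In KO16 the median difference of the list was 0.05, against -0.90 and -0.89 in KO17 and KO18 and 0.18 in controls.

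Markers of neighbouring tissue that a dissected lung can carry were also read. The median difference in KO16, KO17 and KO18 was -0.16, 0.06 and 0.44 over 17 cardiac muscle genes, -0.09, 0.11 and 0.29 over 4 thymus genes, 0.08, 0.18 and 0.27 over 12 skeletal muscle genes, 0.02, 0.10 and 0.06 over 5 esophagus genes and 0.04, 0.75 and 0.27 over 6 mesothelium genes. Over these lists, in that order, the median difference in controls was 0.28, 0.02, 0.08, 0.10 and 0.16. In KO16, KO17 and KO18 it was -0.52, -0.52 and -0.42 over 5 liver genes and -0.56, -1.26 and -0.94 over 2 brown fat genes, with 0.02 and 0.04 in controls. The liver list also varied before birth, as *Alb*, serum albumin, was at 8.71, 11.16 and 6.96 in KO10, KO11 and KO12 and then at 6.70, 6.77 and 6.65. The brown fat gene *Cox7a1*, a cytochrome oxidase subunit that muscle also holds, was at 8.53, 9.65 and 9.61 and then at 8.68, 7.72 and 8.15. Of the genes of these lists only *Upk1b* passed, and the part of such tissue in the results was not tested.

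**Figure D4:**
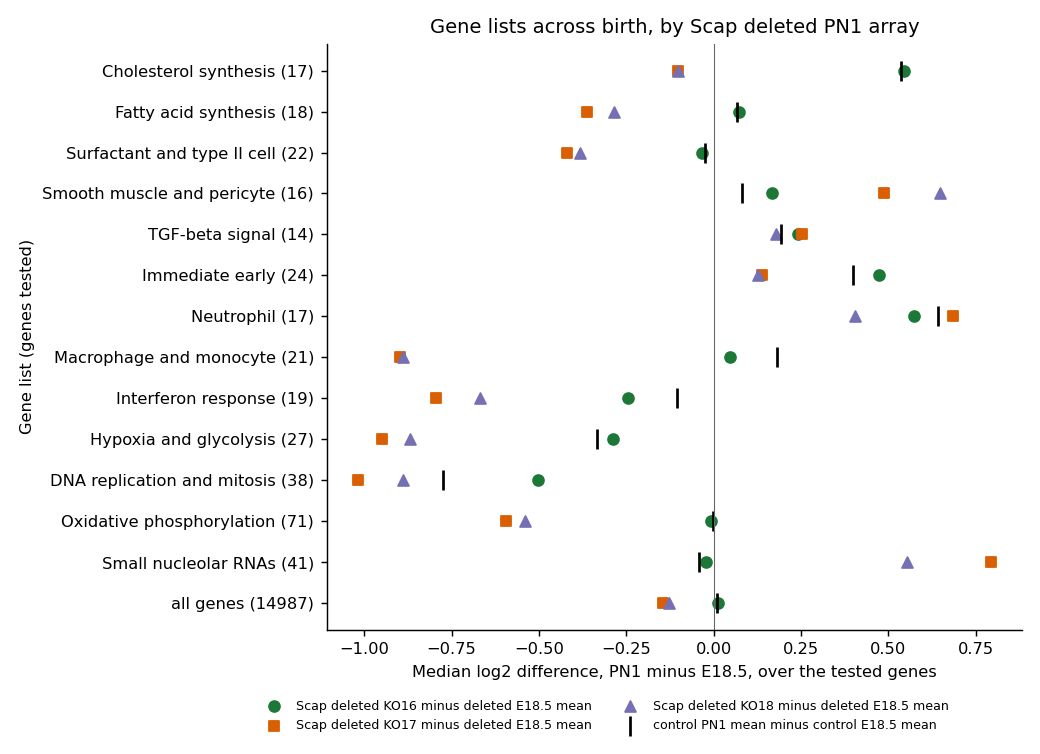
Median log2 difference over the tested genes of each list (horizontal axis; number of genes in brackets) in KO16, KO17 and KO18, each minus the mean of the ScapΔ/Δ E18.5 arrays, with a black bar for controls. KO16 lies beside the control bar for cholesterol synthesis (0.54 and 0.54) and oxidative phosphorylation (-0.01 and 0.00), while KO17 and KO18 lie together and away from it in these lists (-0.10 and -0.10; -0.59 and -0.54).

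Whether the change across birth differed from that of control littermates was tested by the interaction of genotype and age in the 12 arrays of the *Scap* line. None of 22800 probe sets passed (0%), the lowest adjusted p being 0.265 (limma), and 4181, or 18.3%, had an unadjusted p under 0.05. Among the called probe sets an unadjusted p under 0.05 was found for 3 of the 19 that rose and 23 of the 45 that fell. They were called on the same ScapΔ/Δ change that enters this test, so their share cannot be set against the 18.3%. Without KO16 13219 probe sets differed and, with weights estimated for each array, 14685 did.

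The genes with the lowest unadjusted p included some that ran against controls. *Ptgs2*, the inducible cyclooxygenase that makes prostaglandins, was at 8.96, 8.86 and 8.55 at E18.5 and at 8.59, 8.10 and 7.58 at PN1, a difference of -0.70, while controls differed by 1.05 (unadjusted p = 0.000339, adjusted p = 0.265, limma interaction). *Glp1r*, the receptor for glucagon-like peptide, was at 11.45, 11.27 and 11.41 and then at 10.61, 10.94 and 10.68, a difference of -0.63, while controls differed by 0.43 (unadjusted p = 0.000162, adjusted p = 0.265, limma interaction). *Chac1*, a glutathione-degrading enzyme of the stress response, differed by -0.49 beside 0.18, and the zinc finger genes *Zfp113*, *Zfp719* and *Zfp780b* by -0.81, -1.40 and -1.27 beside -0.14, -0.28 and -0.43. In *Ptgs2* KO16 lay inside the range of the E18.5 arrays, and in *Glp1r* all 3 PN1 arrays lay below them.

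The genes with the widest range among the 3 PN1 lungs, given as a description with no test, included several small RNA genes and 2 secreted airway proteins. *Snord118*, the U8 small nucleolar RNA, was at 7.82 in KO16 and at 11.129 and 11.496 in KO17 and KO18, over 6.06, 6.40 and 6.48 at E18.5. *Mir145a*, the microRNA gene of smooth muscle, was at 8.61, 11.20 and 11.35, over 7.71, 7.58 and 7.97, and *Snora33*, *Mir505*, *Phxr4* and *B930095G15Rik* had the same split. The arrays were made for mRNA, so these values come from probe sets over short genes. The secretoglobin *Scgb3a1* was at 11.96, 9.10 and 10.41 and the lectin *Reg3g* at 10.03, 6.58 and 7.90 in KO16, KO17 and KO18, over 10.54, 12.33 and 11.12 and over 8.71, 10.93 and 9.15 at E18.5, so that both also varied before birth. The other genes of wide range were *Zbtb16*, a glucocorticoid-induced zinc finger gene, at 8.02, 9.12 and 11.30 over 10.55, 10.29 and 10.23, and *Serpinb10*, a serpin, at 8.02, 5.36 and 5.39 over 6.82, 7.26 and 7.60. Over 41 small nucleolar RNA genes KO17 and KO18 had median differences of 0.79 and 0.55, against -0.02 in KO16 and -0.04 in controls, and none was called.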

How the data were processed

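The authors hybridized RNA from whole lung to Affymetrix Mouse Gene 1.0 ST arrays, with 3 biological replicates per group, and deposited log2 expression values for 35556 probe sets; how the arrays were summarized and normalized is not given in the sources used here (GeneSpring is named for the later analysis). Arrays have no read depth, so precision rests on the number of arrays. As in the methods, a fit kept probe sets that reached the 35th percentile of the array in 66% or more of its arrays. limma 3.58.1 (R 4.3.3) was fitted to the 6 ScapΔ/Δ arrays, and to the 12 *Scap* line arrays for the interaction of genotype and age. p was adjusted by Benjamini and Hochberg over all probe sets tested. The scripts were tested on simulated data. Symbols were those of the platform annotation (21789 probe sets with 1 symbol, 1621 with several, 12146 with none), and the probe set with the highest mean stood for a gene.

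The members and the 55 gene lists were chosen with earlier results of these data known. Genes were named by rule: the 10 largest called changes in each direction, up to 4 members of a described list with the lowest p and up to 4 with the widest PN1 range, genes of the SREBP and surfactant systems, the 10 genes with the widest PN1 range and the 6 with the lowest interaction p; others are marked. Promoters and coordinates are RefSeq's for GRCm38.p6. Alternatives changed the filter, scaling, variance model, test and arrays, 1 at a time. Probe sets with several or no symbols were left out of lists. Figures were drawn with Python 3.11.15, pandas 2.3.3 and matplotlib 3.10.9.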

Additional observations from a re-analysis of the deposited data

Results flagged for a closer look

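In 2 named genes every ScapΔ/Δ PN1 array lay on one side of every ScapΔ/Δ E18.5 array while the controls lay on the opposite side. For *Glp1r* the difference was -0.63 in ScapΔ/Δ lungs and 0.43 in controls (log2), where E18.5 controls were at 10.94, 10.69 and 10.88 and PN1 controls at 11.52, 11.06 and 11.23. The test of the difference gave an adjusted p of 0.265 (limma interaction) and did not pass. For *Sftpc* the difference was 0.062 in ScapΔ/Δ lungs and -0.026 in controls, with all 12 arrays between 13.36 and 13.50, near the top of the scale, and the test of the difference gave an adjusted p of 0.481 (limma interaction). With quantile normalization and with median centring the sign of *Sftpc* in ScapΔ/Δ lungs turned.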

How the results depend on the processing

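The 64 called probe sets kept their sign under each alternative in which they were tested, and their number past the threshold depended on the setting. Against 64 in all, 40 probe sets passed with a filter at the 50th percentile, 0 with no filter, 12 with quantile normalization and 1 with median centring. A trend of the spread gave 41, 12 arrays in the fit 8581 and array weights 19833. Student's test gave 5 and the stricter limit 0, both of which the methods give for *Insig1* and *Insig2* deletion. When 1 array was left out from 0 to 14450 passed, the highest without KO16 and 0 without any other. With gene means 71 passed, with a robust fit 47, and without KO17 and KO18 70. Probe sets that differed from the control change numbered 0 under every alternative but array weights (14685) and leaving out each array (0 to 13219, the highest without KO16). Array weights gave nearly all weight to 1 array per age, and a lone PN1 array is assumed to vary like the others. Median centring moved the median difference of all probe sets from -0.03 to -0.20. Of 530 list medians under alternatives, 106 moved by more than the SD among the PN1 arrays.

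Several named genes that passed no test changed sign. Without KO17 and KO18 these were *Adm* (0.24), *B930095G15Rik* (-0.041), *Cd68* (0.26), *Ciart* (-0.17), *Nkx2-1* (-0.025), *Nsdhl* (0.52), *Per1* (-0.46), *Per2* (-0.49), *Per3* (-0.37), *Reg3g* (0.43), *Scgb3a1* (0.63), *Slc25a1* (0.23) and *Snora33* (-0.12). With array weights they were *Idi1* (-0.39), *Msmo1* (-0.23), *S100a8* (-0.65) and *Srebf1* (0.079), with median centring *Idi1* (-0.13), *Nkx2-1* (-0.14), *Per2* (-0.040), *S100a8* (-0.12) and *Sftpc* (-0.11), and with quantile normalization *Sftpc* (-0.062) and *Srebf1* (0.049). When 1 array was left out, *Idi1* ranged from -0.44 (without KO16) to 0.34 (without KO18), *Msmo1* from -0.21 (without KO16) to 0.45 (without KO18), *S100a8* from -0.47 (without KO16) to 0.37 (without KO18), *Per2* from -0.10 (without KO18) to 0.45 (without KO16), *Nkx2-1* from -0.062 (without KO12) to 0.15 (without KO10) and *Srebf1* from -0.079 (without KO12) to 0.027 (without KO10). The cause was not tested. No paired analysis was possible because the groups share no replicate numbers.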

Other observations

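*Scnn1b* and *Sgk1*, which act in clearing fluid from the newborn lung, lay higher at PN1 in all 3 ScapΔ/Δ arrays without passing the test. *Scnn1b*, a subunit of the epithelial sodium channel, had a mean of 9.90 at E18.5 and was at 11.16, 10.69 and 10.72 in KO16, KO17 and KO18 (difference 0.96, adjusted p = 0.063, limma), beside 1.10 in controls. *Sgk1*, the kinase that keeps this channel at the surface, was at 9.21, 9.47 and 9.38 and then at 10.89, 10.24 and 10.18 (adjusted p = 0.0781, limma). Of 20 ion and water transport genes 17 were tested, and 5 lay higher and 3 lower at an unadjusted p under 0.05, where over all genes 9.21% lay higher and 19.6% lower. In KO16, KO17 and KO18 11, 9 and 10 of the 17 lay above the E18.5 mean (52.4%, 40.5% and 41.9% of all genes). *Aqp4*, a water channel, and *Nedd4l*, a ubiquitin ligase, differed by -0.80 and -0.62. Of the genes of fatty acid use, *Angptl4*, an inhibitor of lipoprotein lipase, was at 8.19, 8.48 and 8.46 and then at 10.21 in KO16 and 9.25 and 9.20 in KO17 and KO18, with a control difference of 1.83. *Cpt1a*, which admits fatty acids to mitochondria, was at 10.33, 10.09 and 10.01 and then at 11.004, 10.821 and 10.790 (adjusted p = 0.0687, limma).

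Several clock genes divided the newborn lungs, among them *Per1*, which glucocorticoid also induces. *Per1* was at 10.24, 10.13 and 9.99 at E18.5, at 9.66 in KO16, and at 10.81 and 11.13 in KO17 and KO18, while the control arrays of PN1 were at 9.66, 8.85 and 9.43. *Per2*, *Per3* and *Ciart* had KO16 lowest and KO18 highest as well. *Nr1d1*, a repressor of the clock, was higher in all 3 arrays, from 8.96, 8.76 and 8.50 to 9.64, 9.82 and 10.13 (adjusted p = 0.0617, limma). Catalase, *Cat*, which breaks down peroxide, was at 12.08 and 12.36 in KO10 and KO11 but at 9.69 in KO12, and at 8.72 and 8.53 in KO16 and KO17 but at 10.61 in KO18. Its controls were at 12.47, 11.89 and 12.12 and then at 9.3, 9.0 and 8.91. The cause of these divisions was not tested.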
